A study of Mus musculus with 10 samples.

Results

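The genes described here are the mouse Fc gamma receptors and their close partners, together with the Sirpa-Cd47 pair that restrains phagocytosis. They were taken by symbol: Fcgr1, Fcgr2b, Fcgr3, Fcgr4, Fcer1g, Fcgrt, Sirpa, Cd47, Syk and Inpp5d, 10 of the 55414 Ensembl genes in the count table. The measurements were polyadenylated RNA counts from macrophages of the mouse spleen, enriched on magnetic beads through F4/80, an adhesion receptor on the surface of mature macrophages. There were 5 libraries labelled Fpr2KO, from Fpr2-/- mice, which lack formyl peptide receptor 2, and 5 libraries of wild-type C57BL/6N mice (WT). No treatment is given for either group. The labels used here do not give age, the strain background of the knockout line, or the number of animals behind the replicates, so a p-value here measures the spread between libraries only, and that spread may be technical.

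Fc gamma receptors bind the constant part of IgG and let macrophages take up antibody-coated cells and particles. In mice Fcgr1, Fcgr3 and Fcgr4 encode activating receptors that signal through the common gamma chain Fcer1g, which is phosphorylated by Src family kinases and recruits the kinase Syk. Fcgr2b encodes the inhibitory receptor, which recruits the lipid phosphatase SHIP1, the product of Inpp5d. Sirpa is an inhibitory receptor of myeloid cells that binds Cd47 on other cells, red cells among them, and the spleen is where macrophages clear aged and antibody-coated red cells.

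Each library held between 15865820 and 19060188 counts, and the counts of a member in a library lay between 730 and 19837. Fpr2 had 0 reads in all 5 Fpr2KO libraries, where a count of 0 allows at most 0.148 to 0.195 CPM (counts scaled to the size of the library), against 22.97 ± 6.02 CPM in WT (SD, n = 5). Adgre1, which encodes F4/80, was measured at 524.5 ± 63.4 CPM in Fpr2KO and 524.0 ± 60.1 CPM in WT (SD, n = 5). The summed level of 16 red pulp macrophage markers ranged from 10792 to 14046 CPM in Fpr2KO and from 11070 to 14076 CPM in WT. The group means of plasma cell, T cell and dendritic cell sums were close, with log2 ratios of Fpr2KO over WT between 0.00045 and 0.04. Plasma cell sums varied widely between libraries, from 2655 to 6801 CPM in Fpr2KO and from 3098 to 6482 CPM in WT. None of the listed defining markers was at 0 reads over the 10 libraries. All 13 tested neutrophil markers and all 12 monocyte markers had lower estimates in Fpr2KO, with sums of 536.0 to 994.7 CPM in Fpr2KO against 943 to 1567 CPM in WT for neutrophils, and of 2176 to 2977 CPM in Fpr2KO against 2862 to 3385 CPM in WT for monocytes. All 10 B cell markers had higher estimates, with sums of 3690.0 to 4917 CPM in Fpr2KO and 2855 to 4300.2 CPM in WT, and all 12 erythroid markers likewise, with 4687 to 11052 CPM in Fpr2KO and 1656 to 6638 CPM in WT. In each of these lists the sums of Fpr2KO and WT overlapped, and 0 markers passed the false discovery rate threshold given below. At an unadjusted p under 0.05 by edgeR, 8 of 13 neutrophil and 6 of 12 monocyte markers were lower in Fpr2KO, beside 4.92% of all genes tested. By the same measure 3 of 10 B cell and 12 of 12 erythroid markers were higher, beside 4.88% of all genes tested. Over all genes tested, 46.8% of estimates were negative. The markers within a list need not be independent of each other, so a list's count of signs or of small p-values is not that many separate observations. In these bulk samples, a difference in the number of cells of a type and a difference in RNA per cell could not be told apart.

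None of the 10 genes differed between Fpr2KO and WT beyond the spread between libraries. At 0.05, the threshold set for the false discovery rate (FDR) that edgeR gives over 14669 tested genes, 0 of 10 passed, beside 0.0682% of all genes tested (0.00682% higher and 0.0614% lower in Fpr2KO). At an unadjusted p under 0.05 it was also 0 of 10, beside 9.8% of all genes, and DESeq2 and limma voom called 0 of 10 too. Estimates were negative for 7 genes and positive for 3, with a median log2 fold change of -0.09, against 0.01 over all genes tested, where 46.8% of estimates were negative. In each of the 10 genes the Fpr2KO and WT libraries overlapped; the groups stood apart in 1.39% of all genes tested, with Fpr2KO higher in 0.825% and lower in 0.566%.

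Fcgr1, the high-affinity receptor for IgG, was measured at 61.0, 68.6, 60.3, 47.1 and 56.3 CPM in Fpr2KO replicates 1 to 5, and at 46.5, 59.6, 60.0, 61.6 and 56.4 CPM in WT replicates 1 to 5. The groups lay on top of each other, with the lowest libraries being Fpr2KO replicate 4 and WT replicate 1. By edgeR its log2 fold change was 0.05 ± 0.10 (SE; FDR = 0.908), with a 95% interval from -0.18 to 0.27. Fcgr1 lies on the minus strand of chromosome 3, at 96282909 to 96293969 in GRCm38, apart from the other Fc gamma receptor genes. Those of Fcgr2b, Fcgr4, Fcgr3 and Fcer1g follow each other on chromosome 1, between 170958617 and 171234365.

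Fcgr3, a low-affinity activating receptor, was measured at 241.0, 222.3, 226.6, 170.1 and 209.5 CPM in Fpr2KO, against 212.8, 238.7, 277.6, 232.8 and 219.4 CPM in WT, in the order of the replicate numbers. Fpr2KO replicates 4 and 5 lay below all WT libraries, WT replicate 3 lay above all others, and the rest were mixed (by edgeR, log2 fold change -0.14 ± 0.10 SE and FDR = 0.665). Fcgr4, an activating receptor of macrophages and nonclassical monocytes, was measured at 109.3, 104.6, 100.2, 77.6 and 85.2 CPM in Fpr2KO, and at 102.1, 97.2, 187.2, 111.9 and 86.5 CPM in WT. WT replicate 3 stood far above the other 9 libraries, which ranged from 77.6 to 111.9 CPM. The log2 fold change of Fcgr4 was -0.29 ± 0.19 (SE; by edgeR, FDR = 0.646), the most negative of the 10, and -0.06 without WT replicate 3. In the same WT library Cd300e and Ace, both in the list of monocyte markers, were measured at 170.9 and 454.5 CPM, against 96.9 to 105.5 and 281.7 to 316.3 CPM in the other WT libraries. Of the same list, Treml4 was at 284.1 CPM in WT replicate 3 and 275.3 CPM in WT replicate 2. Nr4a1 was at 926.8 CPM in WT replicate 3, below the 1221.8 CPM of WT replicate 1. The sum of all 12 monocyte markers was 3385 CPM in WT replicate 3, close to the 3290 CPM of WT replicate 1. The part of monocytes in the Fcgr4 value was not tested.

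Fcer1g, the signalling chain shared by these receptors, was measured at 329.6, 303.3, 284.3, 257.1 and 327.3 CPM in Fpr2KO and at 315.5, 365.3, 409.5, 314.1 and 273.2 CPM in WT. As with Fcgr3 and Fcgr4, the highest library was WT replicate 3 and the lowest Fpr2KO replicate 4 (by edgeR, log2 fold change -0.16 ± 0.11 SE and FDR = 0.658). Between members, Fcgr3 and Fcer1g had the most similar profiles over the 10 libraries. After subtracting each gene's mean, their log2 CPM differed by a root mean square of 0.11, and the ratio of Fcgr3 to Fcer1g was 0.713 ± 0.0627 in Fpr2KO and 0.710 ± 0.0615 in WT (SD, n = 5).

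**Figure D1:**
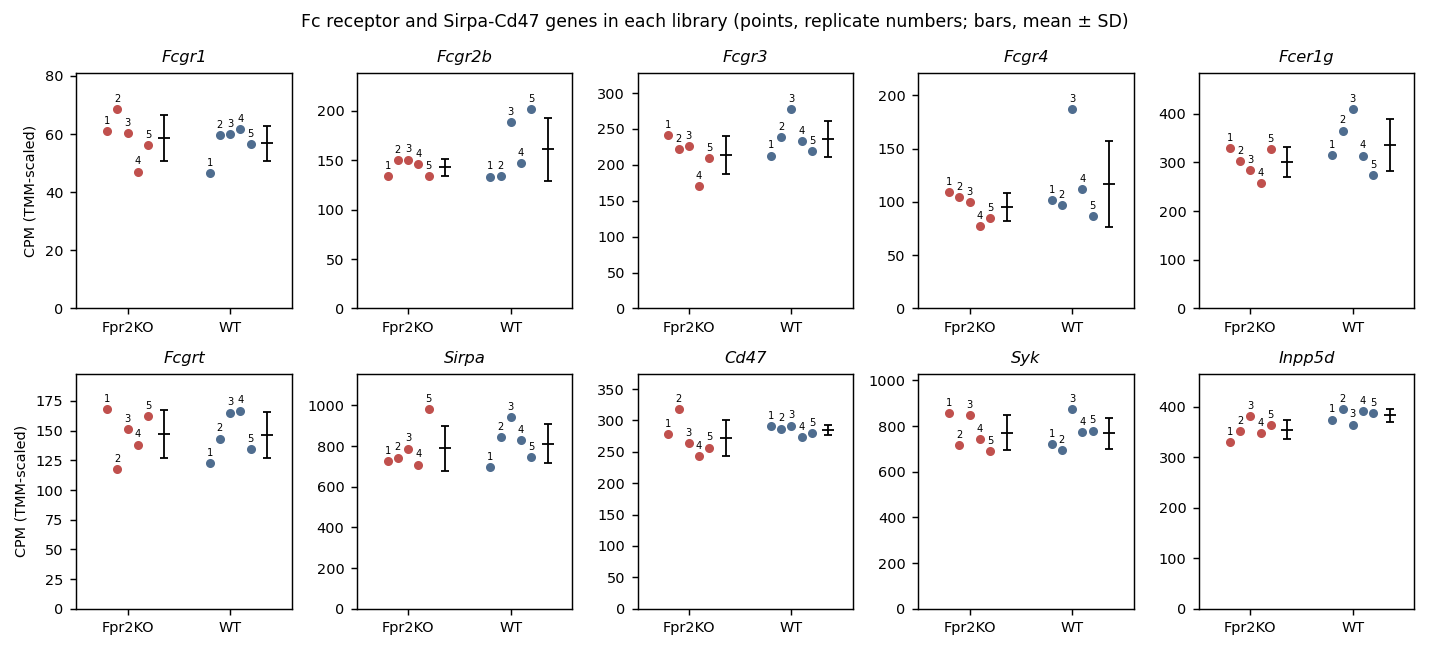
CPM of each of the 10 genes in each library, on axes that start at 0, with Fpr2KO on the left, WT on the right, replicate numbers above the points, and the mean ± SD of 5 libraries beside them. The groups overlap in every panel, and WT replicate 3 stands apart for Fcgr4 at 187.2 CPM.

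The promoters of the 3 IgG-binding activating receptors are shown because each of them holds, close to its start, the letters that are the core of the binding site of PU.1, the transcription factor of myeloid cells. The sequences are the 250 bases before the annotated start in the RefSeq promoter table of GRCm38.p6, written in the direction of the gene. Capitals mark matches to GAGGAA or, on the other strand, TTCCTC, and in Fcgr1 also a match to TTCNNNGAA, the form of gamma-activated sites. Fcgr1 lies at chr3:96293970-96294219 on the minus strand, Fcgr3 at chr1:171059395-171059644 on the minus strand, which is 1 of its 2 listed starts, and Fcgr4 at chr1:171018676-171018925 on the plus strand.
Fcgr1: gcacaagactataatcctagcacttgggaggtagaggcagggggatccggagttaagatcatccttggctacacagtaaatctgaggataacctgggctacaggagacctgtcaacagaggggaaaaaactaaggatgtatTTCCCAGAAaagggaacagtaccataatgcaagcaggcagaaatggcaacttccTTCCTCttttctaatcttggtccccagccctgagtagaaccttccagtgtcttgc
Fcgr3: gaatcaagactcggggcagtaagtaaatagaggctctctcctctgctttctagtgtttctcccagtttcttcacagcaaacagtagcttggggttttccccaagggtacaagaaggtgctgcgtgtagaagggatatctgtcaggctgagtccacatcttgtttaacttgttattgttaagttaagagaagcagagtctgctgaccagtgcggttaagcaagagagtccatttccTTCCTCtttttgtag
Fcgr4: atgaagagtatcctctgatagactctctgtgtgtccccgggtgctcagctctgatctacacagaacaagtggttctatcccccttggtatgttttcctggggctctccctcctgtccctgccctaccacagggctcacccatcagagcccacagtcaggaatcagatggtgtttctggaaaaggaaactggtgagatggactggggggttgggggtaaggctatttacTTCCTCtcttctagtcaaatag
The match begins 55 bases before the start in Fcgr1, 15 in Fcgr3 and 22 in Fcgr4. Of the 9 members with a listed promoter, 5 held GAGGAA on either strand in at least 1 window, the other 2 being Inpp5d and Syk. Of all 32851 promoter windows of this length, 23.3% held it and 7.02% held TTCNNNGAA. These shares are per window, while the count of 5 members is per gene over all its windows, so they cannot be compared directly. These letters are in the window; whether a factor was bound there was not measured.

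Fcgr2b, the inhibitory receptor of macrophages and B cells, was measured at 133.6, 149.9, 150.7, 146.2 and 133.6 CPM in Fpr2KO and at 133.4, 133.7, 188.8, 147.3 and 201.7 CPM in WT. All Fpr2KO libraries lay within the WT range, whose upper end was set by WT replicates 3 and 5. The coefficient of variation was 6.01% in Fpr2KO and 19.9% in WT. The log2 fold change was -0.17 ± 0.12 (SE; by edgeR, FDR = 0.655) and became -0.11 without WT replicate 3 and -0.09 without WT replicate 5. B cell markers, which come from the other main cell type with this receptor, had higher estimates in Fpr2KO for all 10 genes, with 0 past the FDR. The Fcgr2b estimate was negative. The part of B cells in the Fcgr2b value was not tested.

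The counts of Fcgr2b and Fcgr3 may not be fully separate, because the extracellular parts of both genes share sequence. The handling of reads with several matches is not given, so the effect on either count is not known. Of the 31-base sequences of Fcgr3 transcripts 13.4% also occur in Fcgr2b, and 4.15% of those of Fcgr2b occur in Fcgr3. Within single exons of the first listed transcript of each gene, the longest shared coding stretch is 113 bases, in exon 4 of either. It is shown with its flanks because reads that fall inside it match both genes. Capitals mark this unbroken stretch of identical bases, and most of the flanking bases in small letters are identical as well. Both sequences are coding GRCm38 sequence on the minus strand, Fcgr2b at chr1:170966545-170966687 and Fcgr3 at chr1:171054038-171054180.
Fcgr2b: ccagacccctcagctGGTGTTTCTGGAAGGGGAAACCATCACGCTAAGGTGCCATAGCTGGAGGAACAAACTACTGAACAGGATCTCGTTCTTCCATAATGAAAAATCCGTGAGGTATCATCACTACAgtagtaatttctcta
Fcgr3: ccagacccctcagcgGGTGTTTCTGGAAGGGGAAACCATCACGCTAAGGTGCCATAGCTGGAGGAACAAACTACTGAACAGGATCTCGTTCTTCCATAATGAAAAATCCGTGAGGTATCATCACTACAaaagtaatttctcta
Fcgr1, Fcer1g and Sirpa share between 0% and 0.0392% of such sequences with other genes, and Fcgr4 shares 1.31%. Annotated genes overlap 4 members: Gm38204 overlaps Fcgr2b, Mir6546 Fcgr3, Gm26110 Fcgr4 and Gm45669 Fcgrt. These hold between 0 and 62 reads over a group, few beside the members' counts.

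The balance of activating and inhibitory receptors was described by ratios within each library, which do not depend on library scaling. The ratio of Fcgr3 to Fcgr2b was 1.504 ± 0.229 in Fpr2KO and 1.504 ± 0.259 in WT (SD, n = 5). That of Fcgr1 to Fcgr2b was 0.412 ± 0.0556 in Fpr2KO and 0.362 ± 0.0689 in WT, and that of Fcgr4 to Fcgr2b was 0.670 ± 0.104 in Fpr2KO and 0.734 ± 0.201 in WT. Each ratio overlapped between the groups. WT replicate 5 had the lowest ratio of all 10 libraries in each of the 3, at 0.280 for Fcgr1, 1.09 for Fcgr3 and 0.429 for Fcgr4.

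**Figure D2:**
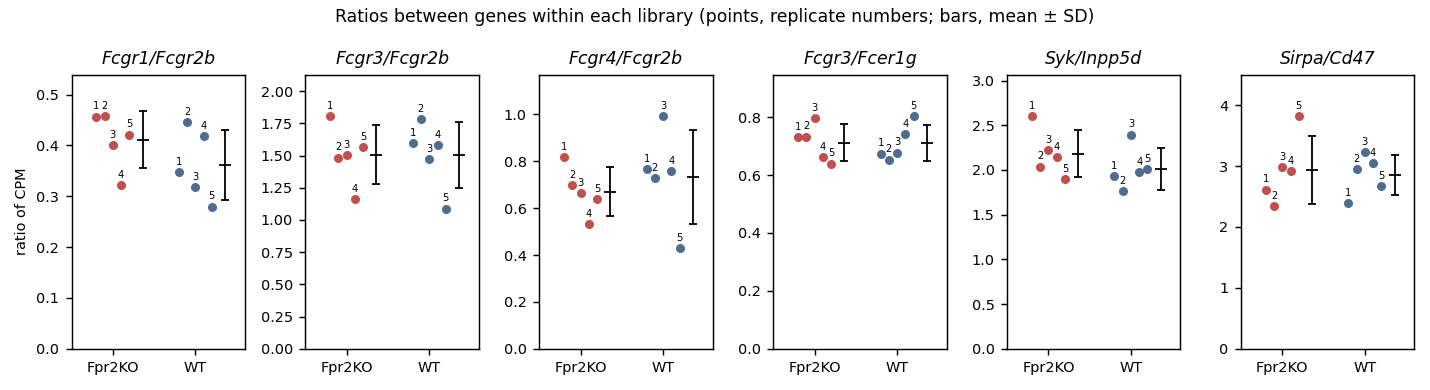
Ratios of CPM between pairs of genes in each library, on axes that start at 0, with Fpr2KO left of WT, replicate numbers above the points, and mean ± SD of 5 libraries beside them. All 6 ratios overlap between the groups, and WT replicate 5 is the lowest library for the 3 ratios to Fcgr2b.

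Downstream of the receptors, Syk, the kinase that docks on the phosphorylated gamma chain, was measured at 856.7, 716.2, 849.5, 743.8 and 690.3 CPM in Fpr2KO and at 722.5, 694.2, 873.2, 774.5 and 779.9 CPM in WT. The groups covered nearly the same range, and the log2 fold change was 0.00 ± 0.09 (SE; by edgeR, FDR = 0.990), with a 95% interval from -0.19 to 0.20. Inpp5d, which encodes SHIP1, was measured at 329.5, 351.2, 381.7, 347.6 and 363.0 CPM in Fpr2KO and at 374.2, 394.4, 364.5, 391.5 and 387.7 CPM in WT. Of the 5 Fpr2KO libraries 4 lay below the lowest WT library, the exception being Fpr2KO replicate 3. Inpp5d had the smallest spread of the 10 genes and a log2 fold change of -0.11 ± 0.07 (SE; by edgeR, FDR = 0.639), with a 95% interval from -0.26 to 0.04. The ratio of Syk to Inpp5d was 2.18 ± 0.263 in Fpr2KO and 2.02 ± 0.234 in WT (SD, n = 5), with overlapping groups.

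Sirpa, the inhibitory receptor that binds Cd47, was measured at 726.0, 743.6, 787.5, 709.1 and 980.4 CPM in Fpr2KO and at 695.7, 845.1, 943.1, 831.0 and 747.7 CPM in WT. Fpr2KO replicate 5 was the highest of all 10 libraries, and the other 4 Fpr2KO libraries lay within the WT range. The log2 fold change of Sirpa was -0.04 ± 0.11 (SE; by edgeR, FDR = 0.922) and -0.13 without Fpr2KO replicate 5. Cd47, the ligand, was measured at 277.8, 317.6, 264.2, 242.8 and 256.8 CPM in Fpr2KO and at 290.6, 286.9, 291.7, 273.0 and 280.4 CPM in WT. The coefficient of variation was 10.5% in Fpr2KO and 2.75% in WT, and 3 Fpr2KO libraries lay below and 1 above all WT libraries (by edgeR, log2 fold change -0.07 ± 0.08 SE and FDR = 0.812). The ratio of Sirpa to Cd47 was 2.94 ± 0.556 in Fpr2KO and 2.86 ± 0.330 in WT (SD, n = 5). Cd47 is made by nearly all blood cells, and beside these values erythroid markers summed to 4687 to 11052 CPM in Fpr2KO and 1656 to 6638 CPM in WT; their part in the Cd47 level was not tested.

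Fcgrt, the heavy chain of the neonatal Fc receptor that protects IgG from lysosomal breakdown, ranged from 117.6 to 167.9 CPM in Fpr2KO and from 122.6 to 166.8 CPM in WT (by edgeR, log2 fold change 0.01 ± 0.11 SE and FDR = 0.984). B2m, its light chain and that of class I molecules, named for this role, had a log2 fold change of -0.08 ± 0.12 (SE; by edgeR, FDR = 0.856). In GRCm38, Fcgrt lies on chromosome 7 at 45092990 to 45103851, Sirpa on chromosome 2 at 129592835 to 129632228, Cd47 on chromosome 16 at 49800533 to 49915010, Syk on chromosome 13 at 52583173 to 52648792 and Inpp5d on chromosome 1 at 87620312 to 87720507.

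The precision of the comparison is given by the intervals of the fold changes. The narrowest 95% interval was that of Inpp5d, from 0.835 to 1.03 times the WT level, and the widest that of Fcgr4, from 0.608 to 1.09 times. For the other 8 genes the lower bounds lay between 0.746 (Fcgr2b) and 0.885 (Fcgr1) and the upper bounds between 1.05 (Fcgr3) and 1.20 (Fcgr1). Differences of a size within these bounds could not be told from none with 5 libraries a group.

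**Figure D3:**
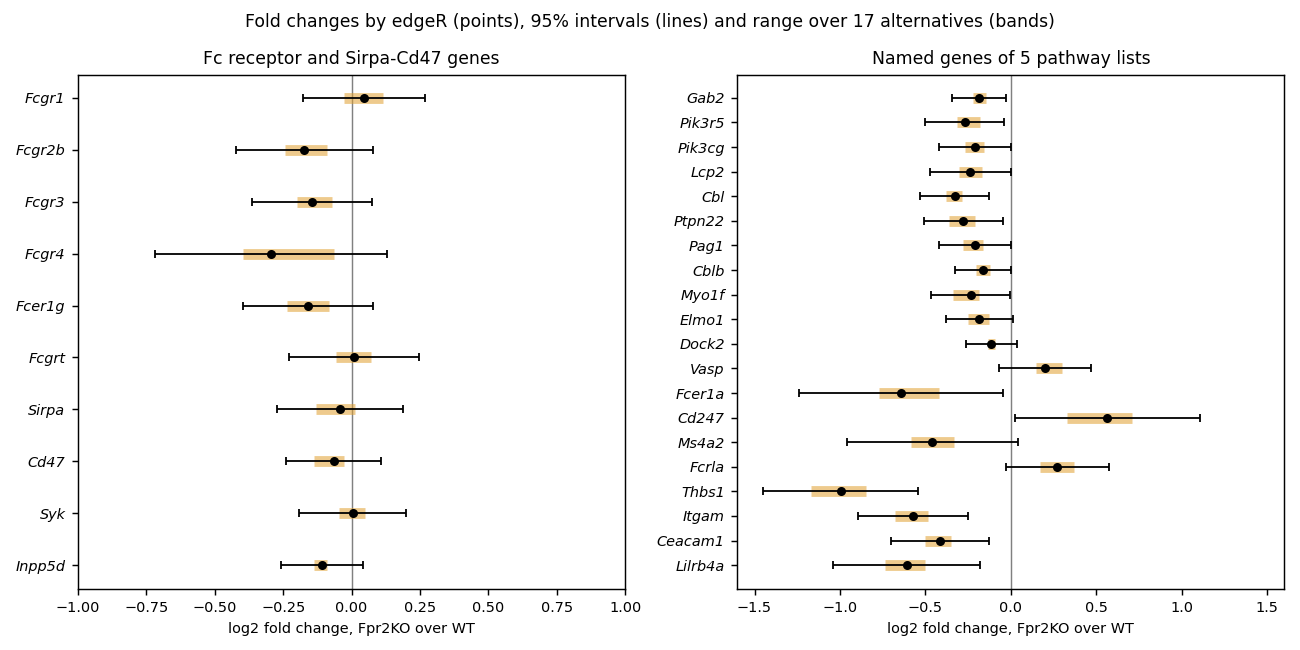
Log2 fold changes of Fpr2KO over WT by edgeR as points, with 95% intervals as lines and the range over the reported fit and 17 processing alternatives as bands, for the 10 genes on the left and for the named pathway genes on the right. Every interval on the left includes 0, and Thbs1 on the right lies lowest at -0.997.

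Per exon length, the 10 genes covered a range of more than 10-fold. The level is given as CPM per kilobase of merged exons. Fcer1g was highest, at 344 ± 34.9 in Fpr2KO and 384 ± 60.3 in WT (SD, n = 5). It was followed by Sirpa, at 161 ± 22.6 in Fpr2KO and 165 ± 19.4 in WT, and by Fcgr3, at 123 ± 15.5 in Fpr2KO and 136 ± 14.6 in WT. Fcgr4, Syk and Fcgrt came next, with group means between 69.7 and 93.1, then Inpp5d and Cd47 with means between 43.3 and 50.3. Fcgr2b, at 24.7 ± 1.48 in Fpr2KO and 27.8 ± 5.54 in WT, and Fcgr1, at 22.7 ± 3.03 in Fpr2KO and 21.9 ± 2.35 in WT, were lowest. Neighbours in this order overlapped over the 10 libraries, except Fcer1g and Sirpa, Fcgrt and Inpp5d, and Cd47 and Fcgr2b. With the length of the longest transcript in place of merged exons, Fcgr4 and Syk changed places and the other 8 kept theirs. With that length the neighbours without overlap were Fcer1g and Sirpa, Inpp5d and Cd47, and Fcgr2b and Fcgr1, so of the 3 separations only that of Fcer1g from Sirpa held with both lengths. The messages of the signalling chain and of the low-affinity activating receptor stood above that of the inhibitory receptor in both genotypes.

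**Figure D4:**
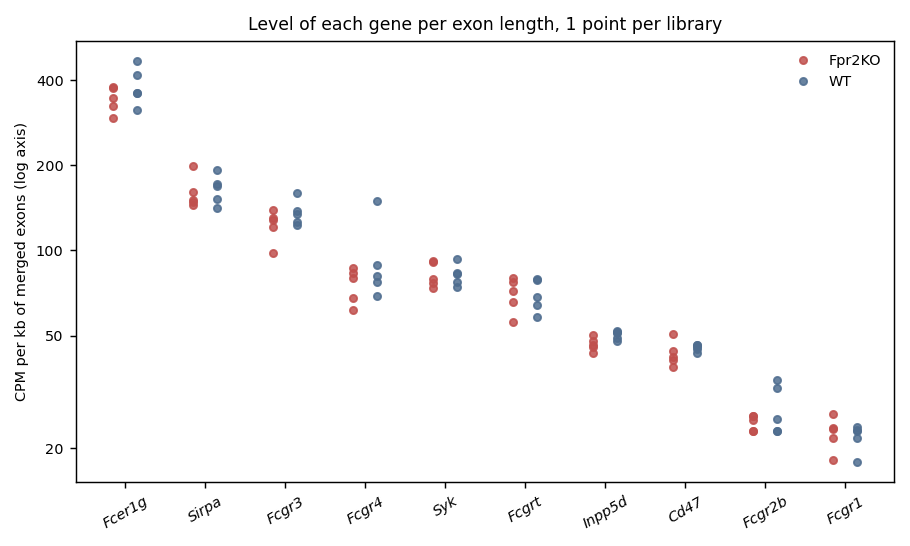
CPM per kilobase of merged exons on a log axis, 1 point per library, Fpr2KO left of WT for each gene, ordered by the mean over 10 libraries. Fcer1g lies above all other genes, and Fcgr2b and Fcgr1 lie below them.

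The libraries at the extremes were often the same. WT replicate 3 was the highest of the 10 libraries for 4 genes (Fcgr3, Fcgr4, Fcer1g and Syk), and Fpr2KO replicate 4 the lowest for 4 (Fcgr3, Fcgr4, Fcer1g and Cd47). A WT library, replicate 1, was the lowest for 3 (Fcgr1, Fcgr2b and Sirpa). Adgre1 was also lowest in Fpr2KO replicate 4, at 419.2 CPM, and highest in WT replicate 3, at 601.8 CPM. The red pulp marker sum was lowest in Fpr2KO replicate 4, at 10792 CPM. In WT replicate 3 it was 14076 CPM, close to the 14046 CPM of Fpr2KO replicate 2 and the 14061 CPM of WT replicate 2, so it did not set that library apart. Erythroid markers were lowest in WT replicate 3, at 1656 CPM, and B cell markers highest in Fpr2KO replicate 4, at 4917 CPM. Relative to Adgre1 in the same library, a scale chosen after seeing the data, the SD of log2 values over 10 libraries was smaller for 5 genes. It was 0.12 in place of 0.18 for Fcgr3, and 0.12 in place of 0.20 for Fcer1g. For Fcgr2b it was larger, 0.27 in place of 0.21, as it was for Fcgrt, Cd47, Syk and Inpp5d. On this scale the groups overlapped in all 10 genes, and the difference was -0.15 for Fcgr3, -0.15 for Fcer1g and -0.25 for Fcgr4 on the log2 scale.

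**Figure D5:**
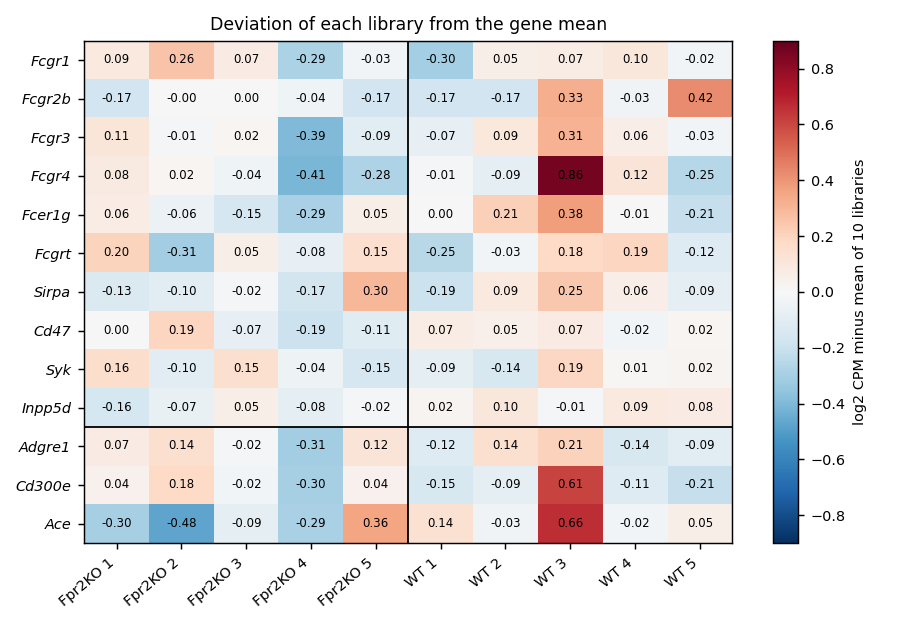
Deviation of log2 CPM from the mean of the 10 libraries for the 10 genes, with Fpr2KO libraries left of WT libraries. Below the line are Adgre1 (F4/80) and, of the 12 listed monocyte markers, Cd300e and Ace only. WT replicate 3 is highest for Fcgr4 (0.86), Cd300e (0.61) and Ace (0.66), and Fpr2KO replicate 4 is lowest for Fcgr3 (-0.39), Fcer1g (-0.29) and Adgre1 (-0.31).

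Outside the 10 genes, likeness of profile was measured by the root mean square difference of mean-centred log2 CPM over the 10 libraries, among 9039 genes with a mean of at least 10 CPM. The nearest to Fcgr4 were Plvap, an endothelial diaphragm protein, and Cd300e, a receptor of monocytes, at 0.16 and 0.17, against a median of 0.37 over genes. Like Fcgr4, Plvap was highest in WT replicate 3, at 35.5 CPM, where the other 9 libraries had 13.6 to 19.8 CPM. The nearest to Fcgr1 were Klhl9 and Entpd1, to Fcgr3 Ube2f and Tle1, and to Fcer1g Tmem43 and Sat1, each at 0.06 to 0.07. For Fcgr2b they were Serinc3 and Ppp1r21 at 0.09 and 0.10, for Fcgrt Tnfaip8l2 and Acads at 0.05, and for Sirpa Acot11 and Tbc1d2b at 0.06. For Cd47 they were Dctn4 and Osbpl9 at 0.03 and 0.04, for Syk Dtx2 and Taf12 at 0.06, and for Inpp5d Med17 and Ubl7 at 0.04. No test of likeness was made, and the libraries share depth and cell makeup.

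The rest of the Fc gamma receptor and phagocytosis pathway was described by 5 lists of 98 genes, of which 96 were tested. By edgeR 0 of 96 passed the FDR of 0.05 in either direction, and DESeq2 called 3, which were Cbl, Thbs1 and Itgam, against 1.26% of all genes by DESeq2. At an unadjusted p under 0.05, 14 of 96 were lower and 3 higher, beside 4.92% lower and 4.88% higher among all genes tested. The median log2 fold change was -0.06, against 0.01 over all genes tested.

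Among the phagocytosis checkpoints, 6 of 21 genes were lower and 2 higher at an unadjusted p under 0.05, beside 4.92% and 4.88% of all genes tested. The 4 with the smallest p were all lower: Thbs1, Itgam, Ceacam1 and Lilrb4a. The other 4 are named after their values were seen. The uptake receptor Lrp1 and the integrin chain Itgal had log2 fold changes of -0.25 and -0.24, the Siglec-G ligand Cd24a had 0.30 and the inhibitory receptor Pdcd1 1.21, with FDR between 0.360 and 0.503 by edgeR. Pdcd1 was near the floor, with 75 reads in Fpr2KO and 32 in WT over 5 libraries each. Thbs1 encodes thrombospondin-1, a secreted ligand of Cd47 that platelets and monocytes make. It was measured at 83.3, 61.4, 49.2, 32.9 and 64.5 CPM in Fpr2KO, against 139.4, 121.7, 114.7, 98.6 and 106.6 CPM in WT. Every Fpr2KO library lay below every WT library, which held in this direction for 0.566% of all genes tested, and for 1 of the 96 pathway genes. The log2 fold change was -0.997 (SE 0.21) with FDR = 0.150 by edgeR, so it did not pass. It passed by DESeq2 (FDR = 0.000221) and in the edgeR fits without Fpr2KO replicate 1 (FDR = 0.0489) or without Fpr2KO replicate 4 (FDR = 0.0404), while over the other fits without a block the FDR ranged from 0.107 to 0.392. All 6 tested platelet markers had lower estimates in Fpr2KO too, as did all 12 monocyte markers, with 0 of either list past the FDR. At an unadjusted p under 0.05 by edgeR, 4 of the 6 platelet and 6 of the 12 monocyte markers were lower, beside 4.92% of all genes tested. Platelet sums overlapped, at 19.4 to 30.9 CPM in Fpr2KO and 24.3 to 46.1 CPM in WT. The part of platelets and monocytes in the Thbs1 value was not tested.

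Itgam, the alpha chain of complement receptor 3, was measured at 62.8, 64.2, 59.5, 57.2 and 83.4 CPM in Fpr2KO, against 100.9, 113.8, 121.8, 71.7 and 79.0 CPM in WT. Below the lowest WT library lay 4 Fpr2KO libraries, and Fpr2KO replicate 5 lay above 2 WT libraries (by edgeR, log2 fold change -0.57 ± 0.15 SE and FDR = 0.209; by DESeq2, FDR = 0.0257). Ceacam1 and Lilrb4a, both inhibitory receptors, had log2 fold changes of -0.41 ± 0.13 and -0.61 ± 0.20 (SE), with FDR = 0.342 and 0.351 by edgeR. Of the 31-base sequences of Itgam 67.2% occur in the annotated gene Gm49368, 36.2% of those of Ceacam1 in Ceacam2 and 39.1% of those of Lilrb4a in Lilr4b, so these 3 counts are uncertain. Neutrophil markers, which summed to 536.0 to 994.7 CPM in Fpr2KO and 943 to 1567 CPM in WT, come from cells that carry Itgam; their part was not tested.

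In the list of inhibitory phosphatases and adaptors, 3 of 13 genes were lower and 0 higher at an unadjusted p under 0.05, where 4.92% of all genes tested were lower and 4.88% higher. Cbl, a ubiquitin ligase that marks activated receptors and Syk for removal, was measured at 262.9, 312.3, 311.9, 270.1 and 320.0 CPM in Fpr2KO, against 426.1, 386.2, 349.8, 316.5 and 377.9 CPM in WT. Only Fpr2KO replicate 5 reached the lowest WT library, replicate 4 (by edgeR, log2 fold change -0.33 ± 0.09 SE and FDR = 0.255; by DESeq2, FDR = 0.0453). The phosphatase Ptpn22, which restrains Src and Syk family kinases, the Csk anchor Pag1 and the ligase Cblb had log2 fold changes of -0.28, -0.21 and -0.16, with FDR = 0.425, 0.506 and 0.518 by edgeR. Ptpn6 and Ptpn11, the SHP-1 and SHP-2 phosphatases that Sirpa recruits, are in the same list, and had log2 fold changes of 0.07 ± 0.09 and 0.03 ± 0.07 (SE), with FDR = 0.825 and 0.926 by edgeR; they were chosen for their role after their values were seen.

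Of the 26 proximal kinases and adaptors, 3 were lower and 0 higher at an unadjusted p under 0.05, against 4.92% lower and 4.88% higher of all genes tested. These were the scaffold Gab2 (log2 fold change -0.18, SE 0.07) and the regulatory and catalytic chains of phosphoinositide 3-kinase gamma, Pik3r5 (-0.27, SE 0.11) and Pik3cg (-0.21, SE 0.10). The adaptor Lcp2 (SLP-76) followed at -0.24 (SE 0.11). Their FDR by edgeR lay between 0.438 (Gab2) and 0.516 (Lcp2). Of 22 tested cytoskeleton genes, 1 was lower at an unadjusted p under 0.05, a share near that of all genes: the class I myosin Myo1f (by edgeR, log2 fold change -0.23 ± 0.11 SE and FDR = 0.503). Elmo1 and Dock2, which activate Rac, had log2 fold changes of -0.19 and -0.11, and the actin regulator Vasp had 0.20, with FDR = 0.531, 0.624 and 0.628 by edgeR.

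Of 14 tested genes for other Fc receptors and partners, 1 was lower and 1 higher at an unadjusted p under 0.05, which is near the shares of all genes tested, 4.92% and 4.88%. Fcer1a and Ms4a2, the alpha and beta chains of the IgE receptor of basophils and mast cells, had log2 fold changes of -0.65 ± 0.28 and -0.46 ± 0.23 (SE), with FDR = 0.473 and 0.539 by edgeR. Both were near the floor, Fcer1a with 102 reads in Fpr2KO and 159 in WT and Ms4a2 with 149 and 204, over 5 libraries each. Both are also in the list of basophil and mast cell markers, whose sum was 38.8 to 62.4 CPM in Fpr2KO and 58.6 to 101.2 CPM in WT. Cd247, the zeta chain of T and NK cells, ranged from 1.55 to 4.32 CPM in Fpr2KO and from 1.52 to 2.11 CPM in WT (by edgeR, log2 fold change 0.56 ± 0.25 SE and FDR = 0.493). It was also near the floor, with 238 reads in Fpr2KO and 158 in WT over 5 libraries each. Without Fpr2KO replicate 4, at 4.32 CPM, the log2 fold change of Cd247 was 0.33. Of its 31-base sequences 3.27% occur in other genes on the same strand and 57.7% on either strand. The strand setting of the counts is not given, so the Cd247 count is uncertain. Fcrla, an Fc receptor-like protein of B cells, had 0.27 ± 0.14 (SE; by edgeR, FDR = 0.551).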

How the data were processed

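RNA sequencing counts of 10 libraries were analysed. A Qiagen RNeasy Plus Universal kit was used for RNA and NEBNext Ultra II for libraries, per the labels' protocols. The deposited values are raw read counts per Ensembl gene, not normalised by the authors. The submitters' processing notes name HTSeq 0.10.0, FastQC 0.10.1 and the builds mm10 and GRCm38. Not given in the sources used here are the aligner, the strand setting, the annotation release and the handling of reads with several matches, so reads of overlapping antisense genes cannot be told apart. Groups came from the genotype label and replicate numbers from the titles.

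Symbols, coordinates and exon lengths came from GENCODE M21 of GRCm38, which matched 52133 of 55414 identifiers; the 3281 others held 0.0564% to 0.135% of a library's counts. The 20 pairs of libraries within a group had a chi-square per degree of freedom of 11.2 to 60.9, so all were kept as separate replicates. In R 4.3.3, edgeR 4.0.16 was run with filterByExpr (14669 genes left), TMM scaling, robust quasi-likelihood fits and a two-sided test of Fpr2KO against WT, with Benjamini-Hochberg adjustment over all genes tested and an FDR threshold of 0.05. The SE is the size of the log2 fold change divided by the square root of F, and intervals use the t distribution with the fit's degrees of freedom. CPM uses TMM-adjusted library sizes. The floor of 3 counts used for a count of 0 covers counting error only. The fit was also run on simulated counts with the same biological variation for every gene. In these data the variation differs between genes, so that run does not bear on single genes.

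The members and lists were chosen with earlier results of these data known. Named were the 10 members, the genes with the 4 smallest p-values of each pathway list, and the 2 nearest profiles of each member. Likeness was a root mean square difference of mean-centred log2 CPM, and shared sequence the percent of 31-base sequences of a gene's transcripts found in other genes. Alternatives were RLE and upper quartile scaling, no filter, a filter of 1 CPM in 5 libraries, DESeq2 1.42.0, limma 3.58.1 voom, a replicate block and leaving out each library; values relative to Adgre1 were added after seeing the data. RefSeq promoters were matched for 9 of 10 members; Sirpa had no entry.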

Additional observations from a re-analysis of the deposited data

Results flagged for a closer look

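Among 32 sets of 5 libraries examined, 2 held a library far from the other 4, measured as its gap to the nearest library over the range of the set against Dixon's critical value of 0.710. Chance gives about 1 in 20. Fcgr4 was measured at 187.2 CPM in WT replicate 3, against 86.5 to 111.9 CPM in the other WT libraries (ratio 0.748). Sirpa was measured at 980.4 CPM in Fpr2KO replicate 5, against 709.1 to 787.5 CPM in the other Fpr2KO libraries (ratio 0.711).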

How the results depend on the processing

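Under 17 alternatives, 0 of the 10 members passed the FDR of 0.05, and the lowest FDR of any member was 0.324. Of 170 log2 fold changes of members under these alternatives, 152 kept their sign and 18 changed it, all in 4 genes with estimates near 0. Fcgr1 became -0.0257 without Fpr2KO replicate 2 and -0.0268 without WT replicate 1 (range without a library -0.0268 to 0.1151). Fcgrt became -0.0007 with RLE scaling and with DESeq2 (range without a library -0.0573 to 0.0711), and Sirpa 0.0124 without WT replicate 3 (range -0.132 to 0.0124). Syk became -0.0052 with RLE scaling, -0.0033 with the CPM filter and -0.0053 with DESeq2 (range without a library -0.0465 to 0.0493). The count of all genes past the FDR, 10, was 62 without a filter, 185 with DESeq2 and 8 to 51 without a library, at 51 without WT replicate 5, 26 without WT replicate 4 and 26 without Fpr2KO replicate 2. The count of pathway genes, 0, became 3 with DESeq2 and 0 to 1 without a library. The causes were not tested. With the replicate number as a block, 64 genes passed, 1 of them a pathway gene (Thbs1, FDR = 0.0136 by edgeR), and 0 members. The numbers share no stated source, and the correlations of same-numbered libraries ranged from -0.239 to 0.291; 2 of 5 Fpr2KO libraries, replicates 2 and 4, matched best with their own number. Scaling moved the median log2 fold change of all genes by at most 0.02. With 5 libraries a group, the spread between libraries limits the precision, with a common biological coefficient of variation of 0.179; the members had at least 730 counts in every library.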
